A study of Mus musculus with 32 samples.

Results

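The 9 genes described here encode factors that shorten mRNA tails or mark maternal mRNAs for removal in the early mouse embryo. They were taken by name (Cnot1, Cnot6, Cnot6l, Cnot7, Cnot8, Pan2, Btg4, Pabpn1l and Zfp36l2) from the 46078 genes of each of 2 expression tables, and all 9 were found in both. Transcript levels had been measured in 32 RNA sequencing libraries of embryos carrying mutations of Dppa2 or Dppa4, genes of a pair of nuclear proteins of early embryos. Genotypes are written with m for the mother's and z for the embryo's own allele. Each table holds FPKM, fragments per kilobase of transcript scaled to the mapped fragments of a library, so levels are per length. Genes of a table are set side by side on the assumption of even coverage along transcripts. FPKM values do not show coverage, so this could not be checked.

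Total RNA libraries came in 8 groups of 2. The Dppa2 arm, on a B6/DBA mixed background, held m+z+ controls and m-z+ embryos lacking the maternal Dppa2 supply, each sampled as late 1-cell embryos 12 hours after fertilization and as late 2-cell embryos after 28 hours. The Dppa4 arm, on B6, held the same 4 groups for Dppa4. PolyA libraries, single embryos per the descriptions, came as 2 WT 1-cell and 2 WT 2-cell libraries on B6, and as 3 m-z+ and 3 m-z- 2-cell libraries in each arm, m-z- embryos lacking both supplies. Arm and strain cannot be told apart, and nothing in the labels ties replicates to separate mothers or collections, so p-values measure only how these libraries scatter, and that scatter may be technical.

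An mRNA leaves the embryo in steps. The polyA tail is first trimmed by deadenylases, chiefly the CCR4-NOT complex, with PAN2-PAN3 acting on long tails, after which the mRNA is decapped and degraded. In the oocyte many of these mRNAs are stored with short tails. During meiotic maturation and after fertilization, adaptors such as BTG4 bring CCR4-NOT to maternal mRNAs, and their clearance accompanies the start of transcription from the embryo's own genome.

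Several of these genes carry, close to the end of their own 3′UTR, the elements that govern tail length in oocytes. A cytoplasmic polyadenylation element (CPE, searched as TTTTAT or TTTTAAT on the RNA strand) is bound by CPEB proteins and acts together with the polyadenylation signal (searched as AATAAA or ATTAAA). The sites shown are 1 CPE of each gene that has one at an annotated end, the signal at the same Btg4 end, the signals of Cnot6l and Pabpn1l, the genes that fell in most stage comparisons, and that of Zfp36l2. They are read 5′ to 3′ on the strand of the gene from GENCODE M21 transcripts on mm10, with the motif in capitals.
Btg4 CPE, chr9:51119484-51119513, forward strand: aaaaTTTTATgaacactagtgaatataggt
Btg4 signal of the same transcript end, chr9:51119542-51119571, forward strand: tgccggtgataaAATAAAatgaattatagg
Cnot1 CPE, chr8:95719504-95719533, reverse strand: aagatgtattgaTTTTATatatgtgagtac
Cnot7 CPE, chr8:40493038-40493067, reverse strand: tcttaaggtacaTTTTATatcaataaaaat
Pan2 CPE, chr10:128321305-128321334, forward strand: taaaacagcatgTTTTATaaaataaaagta
Cnot6l signal, chr5:96070340-96070369, reverse strand: ttccctgtaggcAATAAAtggccattttgc
Pabpn1l signal, chr8:122619473-122619502, reverse strand: agaatgtaaattATTAAActtgaatatatt
Zfp36l2 signal, chr17:84183931-84183960, reverse strand: tttgtagtttcccccAATAAAattttttgg
The Btg4 pair and the Cnot7 CPE lie at annotated ends other than the one used for the shares below. In the last 100 bases of 1 representative transcript per gene, a CPE was present in 17.8% of 19924 genes and in 3 of the 8 members with a complete end (Btg4, Cnot1 and Pan2). A polyadenylation signal was present in 78.4% of genes and in 5 of those 8 members. Every annotated Cnot8 transcript has an incomplete end, so Cnot8 was not searched. The element TATTTAT, the kind of site that ZFP36L2 and its relatives bind, was present in 4.29% of genes and in 0 of the 8 members. These matches describe letters in a window and were not tested for binding.

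FPKM summed to 412115 to 629583 per total RNA library and 539978 to 675241 per polyA library, and 10706 to 13916 genes reached 1 FPKM. The deposited tables give no counts, so depth is unknown and only the spread between libraries measures error. All 7 oocyte markers were at or above 1 FPKM in every library, and 5 genes of the 2-cell stage summed to 2.77 to 9.07 FPKM in 1-cell and 171 to 250 FPKM in 2-cell total RNA. Of 10 cumulus and granulosa markers, Foxl2, Fshr, Amh, Has2, Inhba, Ptx3 and Hsd3b1 stood between 0 and 1.06 FPKM everywhere, and the list summed to 15.97 to 25.5 FPKM in 1-cell and 28.9 to 41.1 FPKM in 2-cell total RNA and to 18.2 to 87.8 FPKM in polyA RNA. Nr5a2 stood at 11.4 to 38.4 FPKM in total and 5.56 to 51.1 FPKM in polyA RNA, Cyp19a1 at 0.430 to 8.52 and 0 to 17.9 FPKM, and Tnfaip6 at 0 to 4.06 and 0 to 43.4 FPKM; the part of such cells in the results was not tested. Dppa4 was at 0, 0 and 0.149 FPKM in the Dppa4 m-z- libraries. Dppa2 stood at 155, 130.2 and 76.5 FPKM in the libraries labelled Dppa2 m-z-, against 123 and 69.6 FPKM in WT 2-cell embryos, so its RNA does not mark that group. In Dppa2 m-z+ 1-cell libraries it was at 9.38 and 9.52 FPKM against 32.3 and 32.7 FPKM in their controls.

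Across all 14 groups Btg4 RNA was by far the most abundant of the 9, above Cnot7 in second place in every group without overlap between libraries. Zfp36l2 or Pabpn1l was lowest. In Dppa4 m+z+ 1-cell total RNA the order of mean levels ran Btg4, Cnot7, Cnot6l, Pabpn1l, Cnot8, Cnot1, Pan2, Cnot6 and Zfp36l2, with no overlap between neighbours in the 2 libraries. Dppa4 m-z+ 1-cell embryos had the same order, but Cnot7 and Cnot6l overlapped. In WT 1-cell polyA RNA Pabpn1l stood above Cnot6l, and Cnot6 and Pan2 were the only neighbours that overlapped. At the 2-cell stage Pabpn1l was the lowest of the 9 in all 4 total RNA groups.

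**Figure D1:**
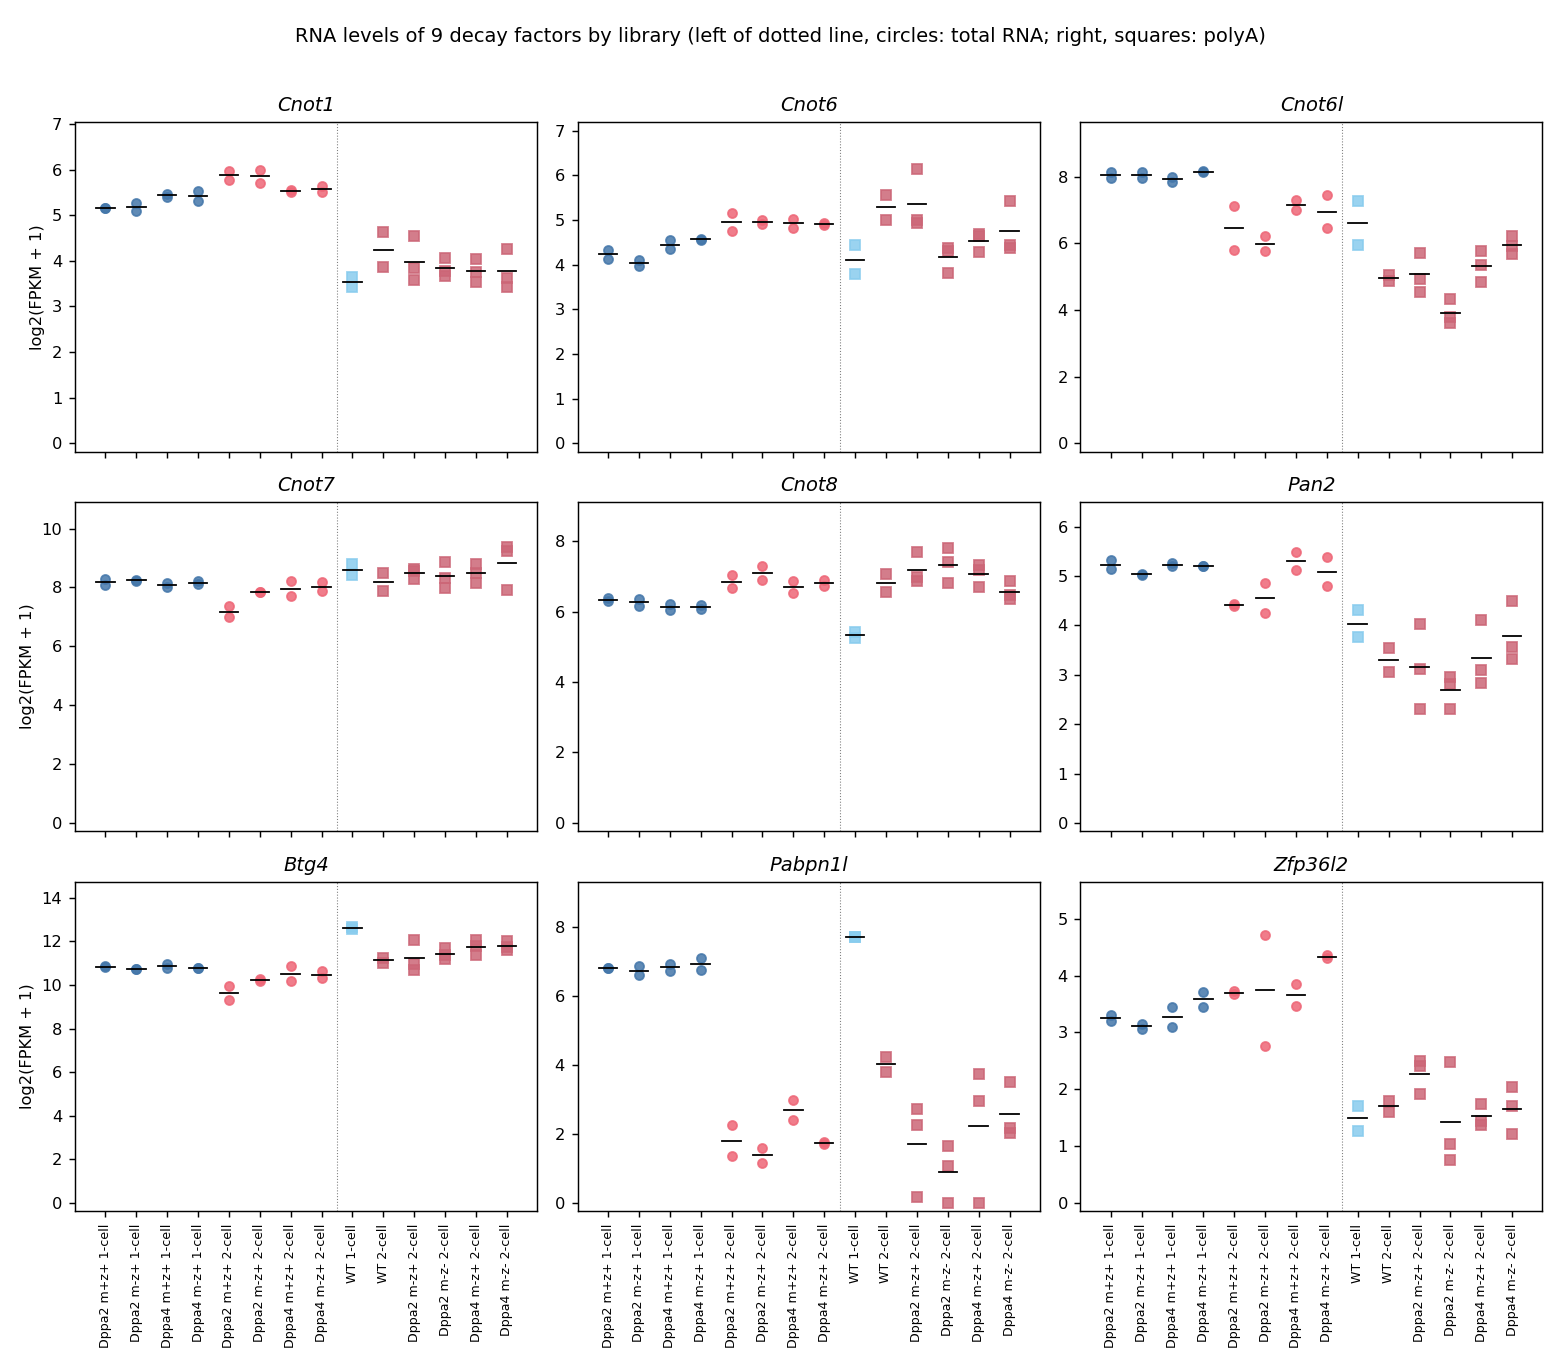
RNA level of each gene in every library, as log2(FPKM + 1), by group: circles are total RNA, squares polyA RNA, blue 1-cell and red 2-cell, and black bars group means. Pabpn1l falls from 95.9 to 136 FPKM in 1-cell to 1.21 to 6.87 FPKM in 2-cell total RNA, while Cnot8 lies higher in all 2-cell than in all 1-cell libraries of the same RNA type.

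The first question was how these RNAs change between the 1-cell and the 2-cell embryo, within each genotype. Pabpn1l and Cnot6l fell and Cnot8 rose most regularly: Pabpn1l was lower and Cnot8 higher in 5 of 5 stage comparisons, and Cnot6l lower in 4. Btg4 fell in 2, Cnot7 and Pan2 in 1 each, Cnot6 rose in 3 and Cnot1 in 2, and Zfp36l2 passed in 0. The share of all genes called alike over the 5 comparisons was not computed, so these counts do not set the members apart. These calls are from limma on log2(FPKM + 1), 2-sided, with p-values adjusted by Benjamini-Hochberg over all genes tested and a threshold of 0.05. All 9 genes passed the filter on low values in both tables. FPKM is a share of a library, so less RNA of a gene cannot be told apart from more RNA of the others, nor fewer cells from less RNA per cell.

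The background was large. In Dppa2 m+z+ controls 61.6% of 15068 genes were called (31.7% higher, 29.9% lower), and 3 of the 9 members were higher and 5 lower. In Dppa4 m+z+ controls 49.1% of genes were called (24.9% higher, 24.2% lower), and 2 members were higher and 1 lower. The shares were 57.3% in Dppa2 m-z+ embryos (28.8% higher, 28.4% lower), with 3 members higher and 2 lower, and 50.3% in Dppa4 m-z+ embryos (25.3% higher, 25% lower), with 1 higher and 2 lower. In WT polyA RNA 25.9% of 18506 genes were called (17.4% higher, 8.42% lower), with 1 member higher and 3 lower. Except for the Dppa2 m+z+ controls, with 8 of 9 called, and WT polyA RNA, with 4 of 9, the members' shares were near or below the background, so a call by itself does not set these genes apart. The median log2 change of the members was -0.81, 0.07, -0.40 and -0.12 in the same order of total RNA comparisons, against 0.06, 0.04, 0.02 and 0.03 over all genes.

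Scaling matters for these directions. When every library was brought to the same total (TPM scaling), the median stage change of all genes moved by -0.26, -0.20, -0.14 and -0.21 on the log2 scale in Dppa2 m+z+, Dppa4 m+z+, Dppa2 m-z+ and Dppa4 m-z+ embryos, and by -0.16 in WT polyA RNA. Among all genes called, the share that was higher went from 51.5% to 40.1%, from 50.7% to 39.9% and from 50.3% to 39.3% in Dppa2 m+z+, Dppa4 m+z+ and Dppa4 m-z+ embryos. In Dppa2 m-z+ embryos it went from 50.3% to 42.9%. Median-ratio scaling moved the total RNA medians the other way, by 0.06, 0.06, 0.09 and 0.07 in the order of the medians above. In WT polyA RNA median-ratio scaling moved the median by -0.21 and that share from 67.4% to 54.3%. The falls of Pabpn1l and Cnot6l passed under both scalings wherever they had passed with the deposited values. Several rises of the more moderate members in total RNA lost their call under TPM scaling, as given with each gene, and none did under median-ratio scaling.

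Pabpn1l (ENSMUSG00000069867, mm10 chromosome 8, 122619471 to 122622739, reverse strand) encodes an oocyte form of the nuclear polyA-binding protein that partners with BTG4 in maternal mRNA decay. Its RNA stood at 111 and 110.1 FPKM in 1-cell and 1.53 and 3.74 FPKM in 2-cell Dppa2 m+z+ embryos. In the Dppa4 m+z+ embryos it was at 119 and 105 FPKM and then at 4.27 and 6.87 FPKM. The m-z+ embryos ran from 95.9 and 114 to 2.02 and 1.21 FPKM in the Dppa2 arm and from 106 and 136 to 2.41 and 2.23 FPKM in the Dppa4 arm. The stages were far apart in every genotype and did not overlap. Pabpn1l changed by -5.01 ± 0.29 (limma SE, 2 libraries against 2) on the log2 scale in Dppa2 m+z+ embryos, with limma adjusted p = 4.34e-08, and by -4.13 ± 0.29, -5.35 ± 0.29 and -5.19 ± 0.29 in Dppa4 m+z+, Dppa2 m-z+ and Dppa4 m-z+ embryos. The WT polyA libraries went from 207.4 and 207.0 to 17.8 and 12.9 FPKM, a change of -3.69 ± 1.00 with limma adjusted p = 0.0113. That polyA call was lost with a pseudocount of 0.1 (limma adjusted p = 0.162) and without WT 1-cell replicate 1, WT 1-cell replicate 2 or WT 2-cell replicate 2 (-3.69, -3.69 and -3.47, adjusted p = 0.0645, 0.0631 and 0.0693).

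Btg4 (ENSMUSG00000032056, chromosome 9, 51060901 to 51119875, forward strand) encodes the adaptor that links CCR4-NOT to maternal mRNAs at oocyte maturation and fertilization. In Dppa2 m+z+ embryos its RNA was at 1803 and 1873 FPKM and then at 642 and 1001 FPKM. In Dppa4 m+z+ embryos it went from 1783 and 1981 to 1158 and 1849 FPKM, and the 2 stages overlapped. The m-z+ embryos moved from 1711 and 1707 to 1178 and 1231 FPKM in the Dppa2 arm and from 1778 and 1779.8 to 1261 and 1617 FPKM in the Dppa4 arm, without overlap. Btg4 fell by 1.20 ± 0.22 on the log2 scale in Dppa2 m+z+ embryos (limma adjusted p = 0.000465). The changes of -0.36 ± 0.22, -0.50 ± 0.22 and -0.32 ± 0.22 in Dppa4 m+z+, Dppa2 m-z+ and Dppa4 m-z+ embryos did not pass (limma adjusted p = 0.194, 0.0663 and 0.250). All 3 passed under TPM scaling, at -0.72, -0.78 and -0.68, the Dppa2 m-z+ change passed in a fit of only its 4 libraries (adjusted p = 0.0189), and the Dppa4 m+z+ change passed without its 2-cell replicate 2, at -0.70 (limma adjusted p = 0.0217). PolyA RNA of WT embryos also showed a fall: Btg4 fell by 1.49 ± 0.36, from 6095 and 6460.0 to 2056 and 2429 FPKM (limma adjusted p = 0.0056), and missed the threshold only without WT 2-cell replicate 1 (-1.37, adjusted p = 0.0529). Even after this fall Btg4 held 1649 to 4317 FPKM in the 14 polyA 2-cell libraries.

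The catalytic subunits of CCR4-NOT come as pairs of paralogues: Cnot6 or Cnot6l supplies the CCR4-type nuclease, and Cnot7 or Cnot8 the CAF1-type nuclease. Cnot6l (ENSMUSG00000034724, chromosome 5, 96070333 to 96164171, reverse strand) is the CCR4-type form known to be prominent in mouse oocytes. Its RNA went from 249 and 281 to 54.4 and 138 FPKM in Dppa2 m+z+ embryos and from 255 and 228 to 127 and 156 FPKM in Dppa4 m+z+ embryos. In m-z+ embryos it went from 284 and 249.7 to 73.3 and 53.1 FPKM in the Dppa2 arm and from 282 and 285 to 175 and 86.3 FPKM in the Dppa4 arm. Every 1-cell library was above every 2-cell library, but the 2-cell replicates lay far apart in Dppa2 m+z+ and Dppa4 m-z+ embryos. Cnot6l fell, with log2 changes of -1.60 ± 0.37, -2.08 ± 0.37 and -1.20 ± 0.37, in Dppa2 m+z+, Dppa2 m-z+ and Dppa4 m-z+ embryos, with limma adjusted p = 0.00223, 0.000352 and 0.0161. In Dppa4 m+z+ embryos the change of -0.77 ± 0.37 did not pass (limma adjusted p = 0.0987), and it passed under TPM scaling (-1.13) and in a fit of only its 4 libraries. The Dppa4 m-z+ call was lost without a filter on low values, without either 1-cell replicate, and without 2-cell replicate 2, where the change was -0.69 (limma adjusted p = 0.187).
The WT polyA libraries showed the same direction, and Cnot6l fell by 1.65 ± 0.49, from 60.5 and 152 to 31.9 and 28.3 FPKM (limma adjusted p = 0.019). That call was lost without WT 1-cell replicate 2 (-0.99, adjusted p = 0.282), WT 2-cell replicate 1 (-1.73, adjusted p = 0.0666) or WT 2-cell replicate 2 (-1.56, adjusted p = 0.0938).

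Cnot6 (ENSMUSG00000020362, chromosome 11, 49671503 to 49712723, reverse strand) moved the other way. It went from 16.5 and 19.1 to 34.7 and 26.0 FPKM in Dppa2 m+z+ embryos and from 22.4 and 19.4 to 27.3 and 31.6 FPKM in their Dppa4 m+z+ counterparts. The m-z+ embryos went from 14.6 and 16.1 to 31.1 and 29.2 FPKM in the Dppa2 arm and from 22.9 and 22.5 to 28.7 and 29.6 FPKM in the Dppa4 arm, and no 2-cell library overlapped a 1-cell library. Cnot6 rose by 0.73 ± 0.17, 0.47 ± 0.17 and 0.93 ± 0.17 on the log2 scale in Dppa2 m+z+, Dppa4 m+z+ and Dppa2 m-z+ embryos (limma adjusted p = 0.00286, 0.0371 and 0.000526). Under TPM scaling the first 2 were 0.29 and 0.13 and did not pass, and the Dppa4 m-z+ change of 0.35 ± 0.17, which had not passed, was negative but near 0 there; it passed under median-ratio scaling, at 0.44 (limma adjusted p = 0.0467). The Dppa4 m+z+ call was also lost without a filter, with plain empirical Bayes, in a fit of only its 4 libraries, and without 1-cell replicate 1 (0.57), 1-cell replicate 2 (0.38) or 2-cell replicate 2 (0.37). The polyA change of 1.17 ± 0.49, from 12.8 and 20.6 to 46.4 and 31.0 FPKM, did not pass (limma adjusted p = 0.0912), and passed in a fit of only the 4 WT libraries (adjusted p = 0.0448). The pseudogene Gm12191 lies within the span of Cnot6, introns included, on the same strand, at 1.14 to 22.9 FPKM in polyA and 0.541 to 3.84 FPKM in total RNA. Whether it overlaps exons of Cnot6, so that reads could be split between them, was not tested.

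Cnot7 (ENSMUSG00000031601, chromosome 8, 40492540 to 40515847, reverse strand) was the more abundant CAF1-type nuclease in all but 1 of the libraries. It went from 270.4 and 312 to 163 and 126 FPKM in Dppa2 m+z+ embryos, and from 255 and 287 to 206 and 297 FPKM in Dppa4 m+z+ embryos. In m-z+ embryos it went from 306 and 298 to 232 and 227 FPKM in the Dppa2 arm and from 299 and 274 to 234 and 291 FPKM in the Dppa4 arm. The stages were apart in the Dppa2 arm and overlapped in the Dppa4 arm. Cnot7 fell by 1.01 ± 0.18 on the log2 scale in Dppa2 m+z+ embryos (limma adjusted p = 0.000371), and the change of -0.40 ± 0.18 in Dppa2 m-z+ embryos missed the threshold (limma adjusted p = 0.0779) but passed under TPM scaling, at -0.67, and in a fit of only its 4 libraries. Among WT polyA libraries the stages overlapped, at 342 and 442 and then 235 and 358 FPKM. The gene span of Cnot7, introns included, shares 17729 bases with that of Zdhhc2 on the opposite strand. Zdhhc2 stood at 3.04 to 18.2 FPKM in polyA and at most 0.290 FPKM in total RNA. The polyA library kit does not mark strand, so reads from any shared exons cannot be separated there. Overlap of exons was not tested.

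Cnot8 (ENSMUSG00000020515, chromosome 11, 58104153 to 58118594, forward strand) was higher at the 2-cell stage in every genotype and both RNA types. In total RNA it went from 77.5 and 82.8 to 101 and 129 FPKM in Dppa2 m+z+ embryos and from 65.2 and 74.0 to 116 and 91.6 FPKM in their Dppa4 m+z+ counterparts. The m-z+ embryos went from 71.0 and 80.9 to 119 and 155 FPKM in the Dppa2 arm and from 66.9 and 72.3 to 105 and 117 FPKM in the Dppa4 arm, without overlap. Cnot8 rose by 0.51 ± 0.17, 0.56 ± 0.17, 0.83 ± 0.17 and 0.66 ± 0.17 on the log2 scale in Dppa2 m+z+, Dppa4 m+z+, Dppa2 m-z+ and Dppa4 m-z+ embryos (limma adjusted p = 0.0224, 0.018, 0.00126 and 0.00696). Under TPM scaling the changes were 0.05, 0.21 and 0.31 in Dppa2 m+z+, Dppa4 m+z+ and Dppa4 m-z+ embryos and did not pass, so that of the total RNA rises the one in Dppa2 m-z+ embryos held. In WT polyA RNA Cnot8 rose by 1.48 ± 0.39, from 36.7 and 42.2 to 133 and 93.9 FPKM (limma adjusted p = 0.00967), under both scalings as well.
Several of these calls were lost when 1 library was left out, which leaves 1 in its group. Each such fit called fewer genes over all genes, so a lost call does not single out the library left out. The Dppa2 m+z+ rise was lost with plain empirical Bayes and without 1-cell replicate 1 (0.46), 1-cell replicate 2 (0.56) or 2-cell replicate 2 (0.34). The Dppa4 m+z+ rise was lost without 1-cell replicate 1 (0.47) or 2-cell replicate 1 (0.39), and the Dppa4 m-z+ rise without 2-cell replicate 2 (0.58, limma adjusted p = 0.0516). The polyA rise was lost without WT 1-cell replicate 1 (1.38) or WT 2-cell replicate 1 (1.23).

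**Figure D2:**
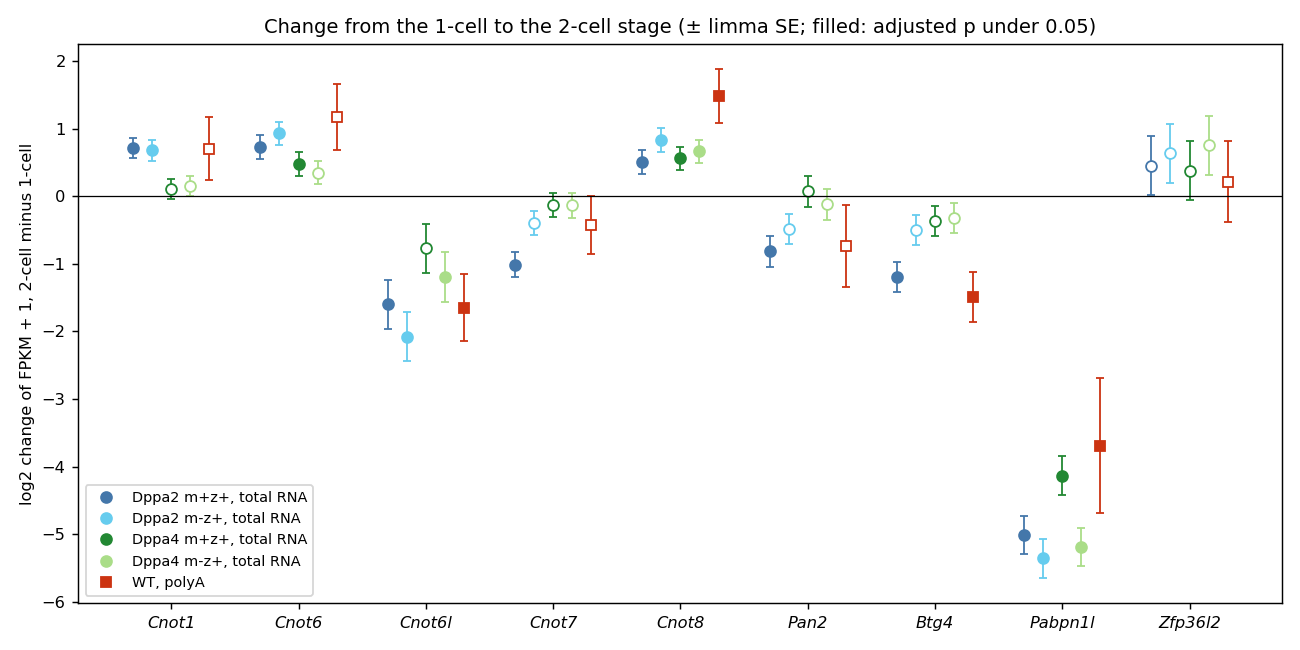
Log2 change of FPKM + 1 from the 1-cell to the 2-cell stage for each gene, with limma standard errors, in 4 total RNA comparisons (circles) and WT polyA RNA (squares). Filled symbols passed the threshold: Pabpn1l lies between -5.35 and -3.69, Cnot6l below 0 and Cnot8 above 0 in all 5.

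The ratio within each pair of nucleases does not depend on how a library is scaled, apart from the pseudocount. Cnot6l fell in 4 of the 5 stage comparisons and Cnot6 rose in 3, whereas Cnot7 fell in 1 and Cnot8 rose in 5. In total RNA the log2 ratio of Cnot6l to Cnot6 was 3.73 ± 0.25 (SD, n = 8) at the 1-cell stage and 1.70 ± 0.74 (SD, n = 8) at the 2-cell stage. The 1-cell libraries ran from 3.45 to 4.19 and the 2-cell libraries from 0.64 to 2.57, with no overlap. The means differed by -2.03. Each set of 8 pools both arms and both genotypes, so its SD is not a spread of replicates. At the 2-cell stage this ratio was 0.64, 2.36, 1.21 and 0.84 in the Dppa2 arm. In the Dppa4 arm it was 2.18, 2.26, 2.57 and 1.51, so the pooled difference describes neither arm by itself. The log2 ratio of Cnot8 to Cnot7 went from -1.95 ± 0.12 (SD, n = 8), with a range of -2.14 to -1.79, to -0.89 ± 0.52 (SD, n = 8), with a range of -1.69 to 0.03. Those means differed by 1.06. The 2-cell values of this second ratio were -0.68, 0.03, -0.95 and -0.55 in the Dppa2 arm. They were -0.83, -1.69, -1.15 and -1.30 in the Dppa4 arm. Leaving out any 1 library kept the differences between -2.15 and -1.88 and between 0.93 and 1.17. The ratios are given as a description with no p, since they restate stage changes of single genes that were already known.

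In polyA RNA the same ratios stood at 2.16 and 2.83 (Cnot6l to Cnot6) and at -3.18 and -3.36 (Cnot8 to Cnot7) in the WT 1-cell embryos. In the 14 2-cell libraries the first ran from -0.78 to 1.56 with a median of -0.01, and the second from -2.91 to -0.60 with a median of -1.45. All 14 were below the 1-cell libraries for the first ratio and above them for the second. The mutant groups among them have no 1-cell polyA libraries, and the medians pool groups that lay apart. The first ratio was -0.53 and -0.13 in WT, -0.78 to 0.02 in the Dppa2 arm and 0.56 to 1.56 in the Dppa4 arm. The coding sequences of the paralogues are 73.1% identical for Cnot6 and Cnot6l and 70.1% for Cnot7 and Cnot8, and the longest identical run in either alignment is 20 bases.

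**Figure D3:**
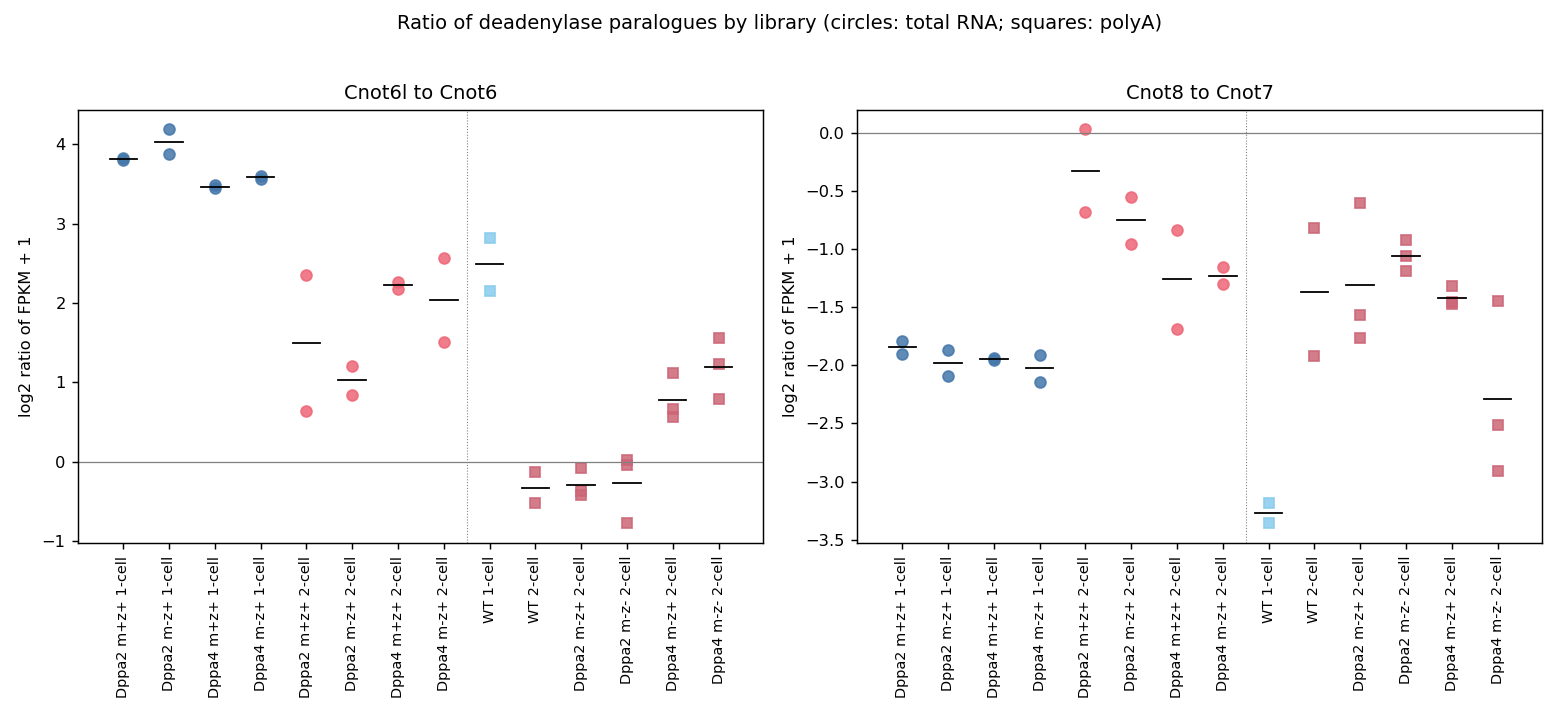
Log2 ratio of FPKM + 1 of Cnot6l to Cnot6 (left) and of Cnot8 to Cnot7 (right) in each library: circles total RNA, squares polyA RNA, blue 1-cell, red 2-cell, bars group means. Left, total RNA libraries drop from 3.45 to 4.19 to between 0.64 and 2.57. Right, they rise from between -2.14 and -1.79 to between -1.69 and 0.03.

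Cnot1 (ENSMUSG00000036550, chromosome 8, 95719451 to 95807464, reverse strand) encodes the scaffold on which the CCR4-NOT subunits assemble. It went from 35.0 and 34.7 to 61.9 and 53.8 FPKM in Dppa2 m+z+ and from 33.0 and 37.5 to 51.4 and 62.9 FPKM in Dppa2 m-z+ embryos, without overlap. In the Dppa4 arm the stages were close, at 43.1 and 41.4 and then 46.3 and 44.7 FPKM in m+z+ embryos, and at 45.0 and 38.9 and then 44.3 and 48.9 FPKM in m-z+ embryos. Cnot1 rose by 0.71 ± 0.15 and 0.68 ± 0.15 on the log2 scale in the Dppa2 arm (limma adjusted p = 0.00127 and 0.00189). Under TPM scaling these were 0.26 and 0.42 and did not pass, and the small positive changes of the Dppa4 arm turned negative. Cnot1 in WT polyA RNA was at 9.81 and 11.6 and then at 23.8 and 13.5 FPKM, and did not pass.

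Pan2 (ENSMUSG00000005682, chromosome 10, 128303335 to 128321358, forward strand) encodes the nuclease of PAN2-PAN3. It went from 38.9 and 34.1 to 20.7 and 19.9 FPKM in Dppa2 m+z+ and from 31.8 and 31.7 to 27.9 and 18.0 FPKM in Dppa2 m-z+ embryos. In the Dppa4 arm it was at 37.4 and 35.9 and then 33.7 and 44.2 FPKM in m+z+, and at 36.1 and 35.8 and then 26.7 and 40.6 FPKM in m-z+ embryos, where the stages overlapped. Pan2 fell by 0.81 ± 0.23 on the log2 scale in Dppa2 m+z+ embryos (limma adjusted p = 0.00753), a call lost without 1-cell replicate 1 (-0.72, adjusted p = 0.0549). In Dppa2 m-z+ embryos the change of -0.48 ± 0.23 did not pass, and it passed under TPM scaling (-0.76) and without 2-cell replicate 1 (-0.79, adjusted p = 0.016). The value of 0.07 in Dppa4 m+z+ embryos did not pass and was negative under TPM scaling.

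Zfp36l2 (ENSMUSG00000045817, chromosome 17, 84183931 to 84187947, reverse strand) encodes a zinc finger protein that binds AU-rich elements and brings CCR4-NOT to such mRNAs. Its RNA was the least abundant of the 9 in the 1-cell groups. It went from 8.15 and 8.86 to 12.2 and 11.8 FPKM in Dppa2 m+z+ embryos and from 9.96 and 7.58 to 13.4 and 10.05 FPKM in their Dppa4 m+z+ counterparts. The m-z+ embryos went from 7.88 and 7.32 to 25.3 and 5.76 FPKM in the Dppa2 arm and from 9.93 and 12.1 to 18.9 and 19.5 FPKM in the Dppa4 arm. The 2 Dppa2 m-z+ 2-cell replicates lay on either side of the 1-cell libraries. No stage comparison passed, with log2 changes of 0.38 to 0.76 in total RNA. Without Dppa2 m-z+ 2-cell replicate 2 the change in that group was 1.61, with 1 library left at the 2-cell stage. The size of the change thus depends on which library is kept. In a fit of only the Dppa4 m-z+ libraries the change of 0.76 passed (adjusted p = 0.0122). Zfp36l2 in WT polyA RNA stood at 1.39 and 2.27 and then at 2.04 and 2.48 FPKM, a change whose sign turned under median-ratio scaling. An antisense gene lies over Zfp36l2, and the polyA values may include its reads.

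The stage change was then compared between the 2 control groups, which differ in strain. The fall of Btg4, Cnot7 and Pan2 and the rise of Cnot1 were called in Dppa2 m+z+ and not in Dppa4 m+z+ embryos, but the difference itself passed for 0 of 9 members in limma, against 0.139% of all genes. At an unadjusted p under 0.05, 5 members differed, as did 2310 of 15068 genes. The differences of log2 change, Dppa2 arm minus Dppa4 arm, were -0.88 ± 0.26 for Cnot7, -0.84 ± 0.31 for Btg4, -0.88 ± 0.32 for Pan2 and 0.61 ± 0.21 for Cnot1, with limma adjusted p = 0.145, 0.229, 0.219 and 0.205. Without Dppa4 m+z+ 2-cell replicate 1, Cnot7 (-1.15, adjusted p = 0.0263) and Btg4 (-1.17, adjusted p = 0.0423) passed. The summed level of the 7 oocyte markers in 2-cell embryos was 924 and 1007 FPKM for Dppa2 m+z+ but 1238 and 1455 FPKM for Dppa4 m+z+ libraries, and its part in the difference was not tested.

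The study's main question was what loss of maternal Dppa2 or Dppa4 changes. None of the 9 genes passed in any of the 4 comparisons of m-z+ with m+z+ embryos in limma. In the 1-cell embryo 0.0398% of all genes passed in the Dppa2 arm (459 genes at an unadjusted p under 0.05) and 0.00664% in the Dppa4 arm (192 genes), and 0 members had an unadjusted p under 0.05 in either. At the 2-cell stage 0.186% of genes passed in the Dppa2 arm (1932 unadjusted), with 2 members unadjusted, and 0% in the Dppa4 arm (402 unadjusted), with 1 member unadjusted. So few genes passed over all that these counts of 0 set the members apart in no way.

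The fit gives a gene the same standard error at both stages. At the 1-cell stage the intervals were thus no narrower than at the 2-cell stage. The log2 difference of Btg4, m-z+ minus m+z+, was -0.10 with a 95% interval of -0.58 to 0.37 in the Dppa2 arm and -0.08 with an interval of -0.56 to 0.40 in the Dppa4 arm. That of Cnot7 was 0.06 (-0.33 to 0.45) and 0.08 (-0.31 to 0.47). At the 2-cell stage Cnot7 stood at 232 and 227 FPKM in Dppa2 m-z+ against 163 and 126 FPKM in m+z+ embryos, a difference of 0.67 ± 0.18 on the log2 scale (limma adjusted p = 0.135). Btg4 stood at 1178 and 1231 against 642 and 1001 FPKM, a difference of 0.59 ± 0.22 (limma adjusted p = 0.289). For both genes the m-z+ libraries lay above the controls without overlap, and neither passed. In the Dppa4 arm the largest was Pabpn1l, at 2.41 and 2.23 FPKM in m-z+ against control levels of 4.27 and 6.87 FPKM (-0.95 ± 0.29, limma adjusted p = 1). Zfp36l2 in the Dppa2 arm again depended on 1 library. Without Dppa2 m-z+ 2-cell replicate 2, which leaves 1 library in that group, its difference was 1.02, against 0.04 with it. The change of the stage effect with genotype passed for 0 of 9 members in either arm, with 0% of genes passing in the Dppa2 arm (1299 unadjusted, 2 of them members) and 0.00664% in the Dppa4 arm (270 unadjusted, 1 of them a member).

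PolyA libraries of 2-cell embryos tested the added loss of the zygotic allele. Again 0 of 9 members passed in limma for m-z- against m-z+, where 0.0054% of genes passed in the Dppa2 arm (1415 unadjusted, 2 of them members) and 0.0162% in the Dppa4 arm (1296 unadjusted, 0 of them members). The largest differences were in the Dppa2 arm. Cnot6 was at 29.4, 31.0 and 69.6 FPKM in m-z+ and 19.8, 13.1 and 18.9 FPKM in libraries labelled m-z-, and Cnot6l at 22.5, 29.3 and 51.6 FPKM against 11.2, 12.8 and 19.1 FPKM. Neither gene's groups overlapped, with differences of -1.18 ± 0.40 and -1.16 ± 0.40 on the log2 scale (limma adjusted p = 0.563 and 0.574). In the library labelled Dppa2 m-z- replicate 3 the blood genes Hba-a1 and Hbb-bs stood at 532 and 378 FPKM, and 4 blood markers summed to 910 FPKM there against at most 48.3 FPKM elsewhere. Without that library the 2 differences were -1.25 and -1.37, and without Dppa2 m-z+ replicate 3 they were -0.79 and -0.83.

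In the Dppa4 arm Cnot6l had the opposite sign: the m-z+ libraries stood at 27.7, 53.7 and 39.8 FPKM and the m-z- libraries at 73.4, 59.9 and 50.4 FPKM, with overlap and a difference of 0.62 ± 0.40 (limma adjusted p = 0.810). The contrast of the arms, added after these values were seen, was -1.78 ± 0.57 for Cnot6l and -1.39 ± 0.57 for Cnot6, and 0 of 9 members passed (limma adjusted p = 0.378 and 0.441), against 0.0162% of genes (1896 unadjusted, 2 of them members). For Cnot8 the Dppa4 m-z+ libraries stood at 159.7, 145 and 103 FPKM and the m-z- libraries at 88.1, 80.2 and 115 FPKM, and for Cnot7 at 446, 363 and 283 FPKM against 242, 608 and 660.1 FPKM. Both overlapped. Btg4 was at 3534, 4317 and 2692 FPKM against 3099.7, 3442 and 4129.9 FPKM, within the spread of the libraries.

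Against the shared WT 2-cell libraries 0 of 9 members passed in limma in any of the 4 mutant groups. The background was 0% of genes for Dppa4 m-z+ (1230 unadjusted), 0.0648% for Dppa4 m-z- (1976 unadjusted), 0.113% for Dppa2 m-z+ (1435 unadjusted) and 0.0973% for Dppa2 m-z- (1149 unadjusted), and at an unadjusted p under 0.05 the members numbered 0, 1, 1 and 3. Pabpn1l stood at 17.8 and 12.9 FPKM in WT, at 5.55, 0.125 and 3.79 FPKM in Dppa2 m-z+, and at 0, 1.07 and 2.14 FPKM in labelled Dppa2 m-z- embryos. In the Dppa4 arm it was at 0, 12.4 and 6.74 FPKM and at 10.2, 3.07 and 3.53 FPKM. All 12 mutant libraries were below both WT libraries, yet the differences of -2.30 ± 0.92 and -3.11 ± 0.92 in the Dppa2 arm did not pass (limma adjusted p = 0.551 and 0.423), and strain and arm cannot be told apart there.

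**Figure D4:**
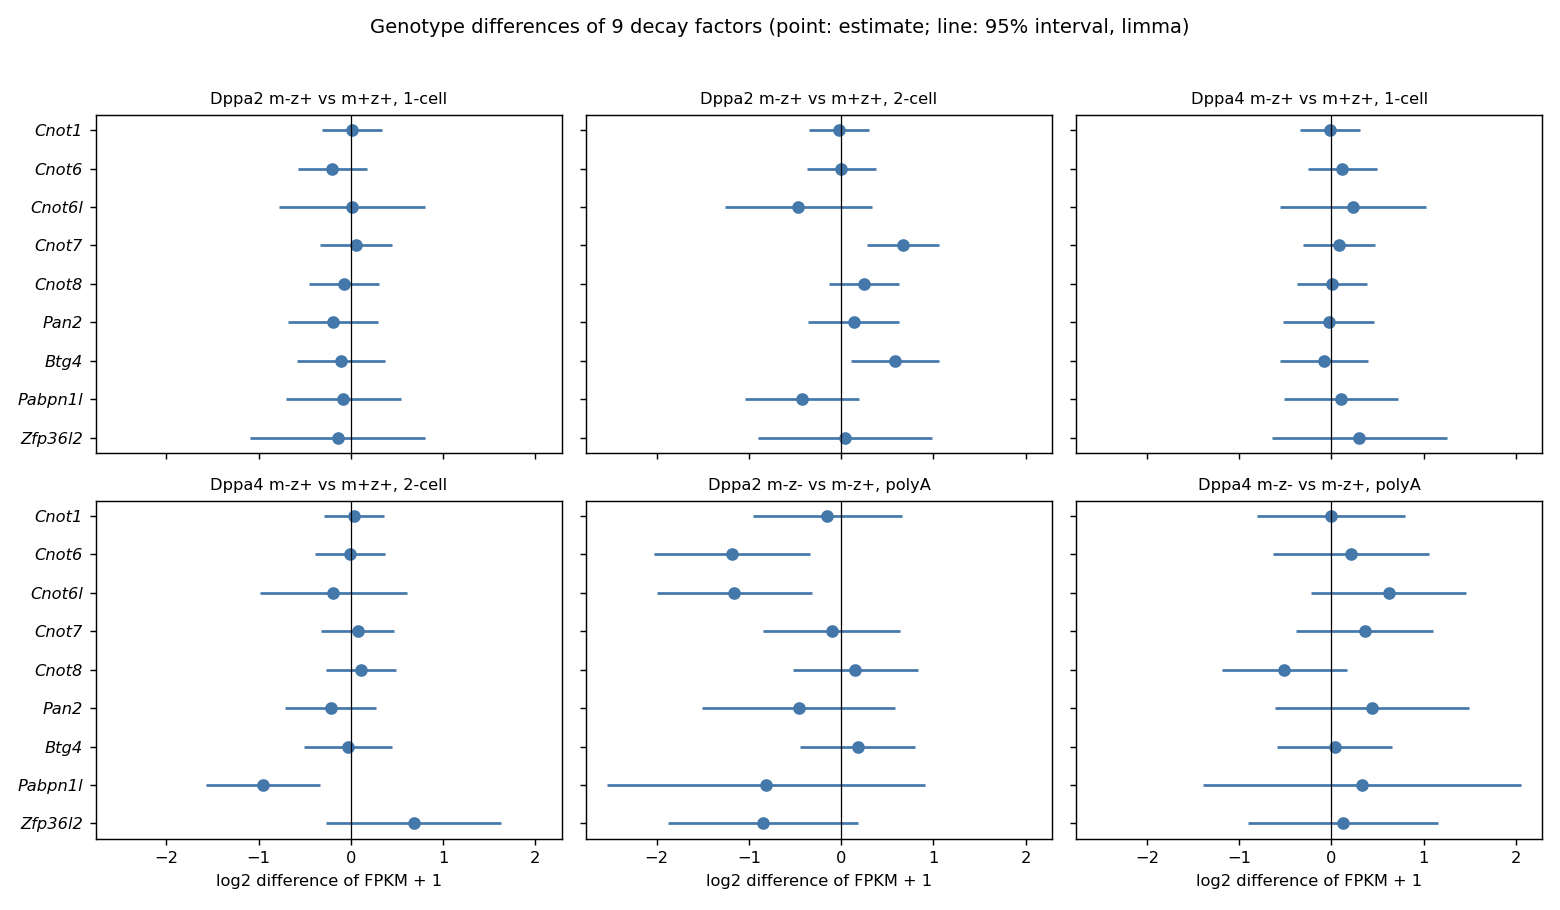
Log2 difference of FPKM + 1 between genotypes for each gene, with the 95% interval of limma, in 4 total RNA and 2 polyA comparisons. No gene passed after adjustment. Before adjustment the intervals of Cnot7 (0.67) and Btg4 (0.59) in Dppa2 2-cell total RNA leave out 0. That of Pabpn1l, below 0 in Dppa4 2-cell total RNA, does so too. The same holds for Cnot6 (-1.18) and Cnot6l (-1.16) in Dppa2 polyA RNA.

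The level of a gene in polyA RNA over that in total RNA was set beside the median of all genes with at least 1 FPKM, as a description only, since the tables were normalized separately and come from different embryos. The B6 pairs set WT polyA libraries over Dppa4 m+z+ total RNA libraries. In B6 1-cell embryos Btg4 stood 1.75 above that median on the log2 scale, higher than 90.9% of genes, at mean levels of 6278 FPKM in polyA and 1882 FPKM in total RNA. Pabpn1l and Cnot7 were also above it, by 0.90 and 0.54. The other 6 were below: Cnot1 at -1.87, Zfp36l2 at -1.77, Pan2 and Cnot6l both at -1.16, Cnot8 at -0.79 and Cnot6 at -0.29. In the B6 2-cell pair Btg4 was at 0.38, Cnot6l at -2.39, Pan2 at -2.19, Cnot8 at -0.07 and Cnot6 at 0.19. The other 2-cell pairs, Dppa4 m-z+ and Dppa2 m-z+, gave 1.10 and 0.77 for Btg4, -1.85 and -1.22 for Cnot6l, -1.84 and -1.62 for Pan2, 0.10 and -0.24 for Cnot8, and -0.55 and 0.14 for Cnot6. All 3 2-cell pairs were thus below the B6 1-cell value for Btg4, Cnot6l and Pan2 and above it for Cnot8. They were also below it for Cnot7, at 0.04, 0.29 and 0.29 in the B6, Dppa4 m-z+ and Dppa2 m-z+ pairs. The same held for Zfp36l2, at -2.16, -2.99 and -2.12, while Cnot6, Cnot1 and Pabpn1l went both ways. For Cnot6l in Dppa2 m-z+ embryos the values were close, -1.22 against -1.16. Of the 3 genes with a CPE in the window searched, Btg4 lay well above the median and Cnot1 and Pan2 well below it in the 1-cell embryo. Tail lengths were not measured.

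**Figure D5:**
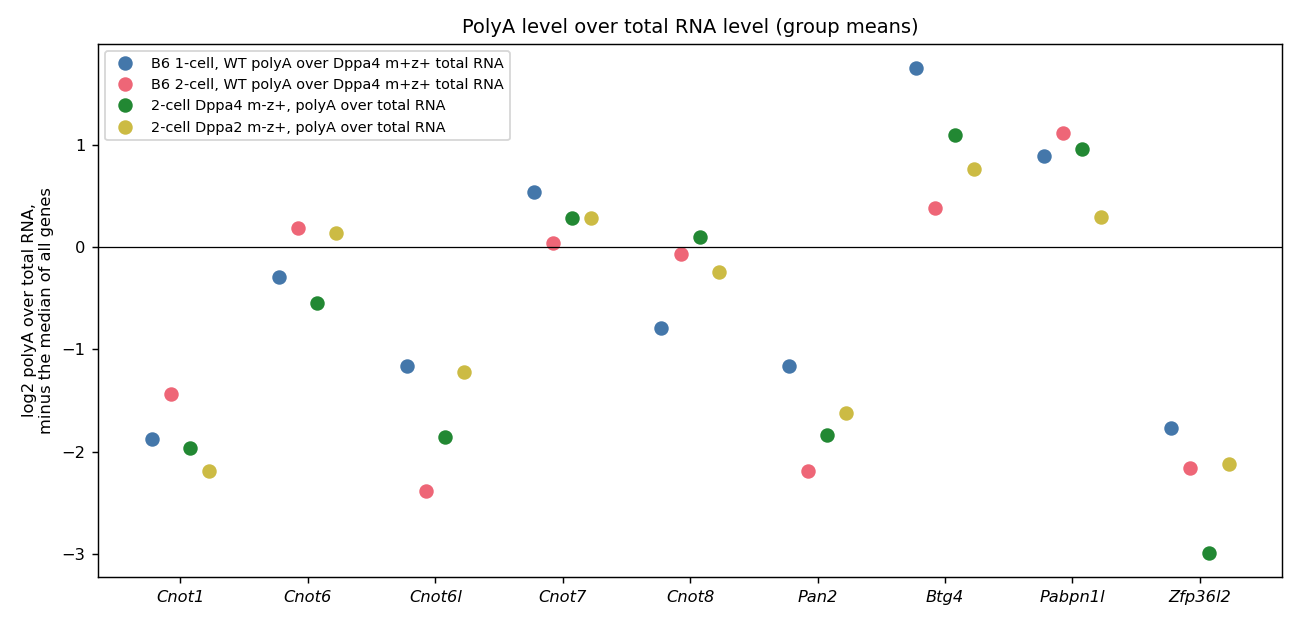
Log2 ratio of the mean polyA level to the mean total RNA level of each gene, minus the median of all genes, in 4 pairs of groups. Btg4 (1.75) is the highest of the 9 in B6 1-cell embryos, and Cnot1, Cnot6l, Pan2 and Zfp36l2 lie below 0 in all 4 pairs.

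The surrounding pathway was read from 85 further genes of mRNA decay and tail control, of which 84 were in the tables and 82 passed the filter in total RNA. Of these, 21 were higher and 27 lower at the 2-cell stage in Dppa2 m+z+ embryos, 16 and 28 in Dppa4 m+z+, 26 and 27 in Dppa2 m-z+ and 18 and 28 in Dppa4 m-z+ embryos. In WT polyA RNA 17 of 84 were higher and 11 lower. The shares called were 58.5%, 53.7%, 64.6%, 56.1% and 33.3%, against 61.6%, 49.1%, 57.3%, 50.3% and 25.9% of all genes. Their median log2 changes were -0.09, -0.16, -0.13, -0.35 and 0.17. TPM scaling made the first 4 counts 14 and 38, 9 and 36, 20 and 33, and 12 and 41, while over all genes the share of calls that were higher was 40.1%, 39.9%, 42.9% and 39.3%. None passed in any genotype comparison in limma. A total of 10 genes were higher in all 5 stage comparisons (Btg1, Btg3, Tob1, Pabpc1, Pabpn1, Tut4, Ythdf1, Ythdf2, Dis3 and Smg5), and 10 were lower (Cnot3, Cnot4, Cnot11, Cpeb1, Papolg, Dcp1a, Lsm14b, Lsm3, Patl2 and Pabpc1l). The share of all genes called alike in all 5 was not computed, so these counts do not set the list apart.

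By role, polyA-binding proteins moved in both directions. Pabpc1, the general cytoplasmic polyA-binding protein, rose from a mean of 4.33 to 174 FPKM in Dppa2 m+z+ embryos, a log2 change of 5.03 ± 0.36 (limma adjusted p = 2.31e-07). Pabpc1l, its oocyte relative, fell by 2.85 ± 0.33 on the log2 scale, from 79.2 to 10.4 FPKM (limma adjusted p = 1.1e-05). Pabpn1, the ubiquitous relative of Pabpn1l, rose in all 5, by 4.29 ± 0.41 in WT polyA RNA (from 95.4 to 1839 FPKM), and by 0.81 to 1.02 in total RNA, where 3 of the 4 calls were lost under TPM scaling.
The BTG/TOB adaptors, the family of Btg4, were higher as 4 of 5 genes in Dppa2 m+z+, Dppa4 m+z+ and Dppa4 m-z+ embryos and 5 of 5 in Dppa2 m-z+ embryos, with 0 lower, though Btg2 and Tob2 lost calls under TPM scaling. Over all genes 24.9% to 31.7% were higher in these comparisons, and whether this small family departs from that share was not tested. Btg3 went from 0.0737 to 11.7 FPKM in Dppa2 m+z+ embryos (3.47 ± 0.35) and Tob1 from 7.21 to 42.9 FPKM in Dppa4 m-z+ embryos (2.42 ± 0.26). Of 6 further CCR4-NOT subunits 0 were higher and 3 to 5 lower in total RNA, where 24.2% to 29.9% of all genes were lower, and in WT polyA RNA 1 was higher and 3 were lower. Cnot11 fell in all 5 comparisons, in polyA RNA by 2.95 ± 0.85 from 38.7 to 4.17 FPKM. Cnot10, named after its values were seen, went against these 3 in polyA RNA, where it rose by 2.30 ± 0.44 from 2.09 to 14.3 FPKM, and it was lower in Dppa4 m+z+ total RNA (-0.68 ± 0.25).
Among tail-extending factors Papolg, a polyA polymerase, fell by 3.19 ± 0.28 in Dppa2 m+z+ embryos, from 48.8 to 4.82 FPKM. Among uridylyltransferases Tut4 rose by 3.68 ± 0.32, from 0.0368 to 12.6 FPKM. Lsm3, of the ring that binds deadenylated ends, fell by 2.69 ± 0.24 in the same comparison, from 108 to 15.8 FPKM.

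Genes whose log2(FPKM + 1) followed a member most closely were sought among 7899 genes with a mean of at least 5 FPKM, over the 16 total RNA libraries. These libraries fall into 2 stages and share their totals, and the part of stage in each correlation was not tested. For Btg4 the closest were Lsm14a (Pearson r = 0.978), an RNA granule protein gene, Oosp3 (0.972), Scml2, Tbc1d22b and Med30. For Pabpn1l they were Txnrd3 (0.995), Fbxw14 and Pdzk1. Cnot6l was followed by Gm7019 (0.965), Dgcr6 and Usp3, and Cnot8 by Lrrn4 (0.964), Tlk2 and Nampt. Cnot7 (Taf5, 0.938), Cnot1 (Zbtb17, 0.960), Cnot6 (Homer1, 0.949) and Pan2 (Parp12, 0.950) had equally close partners, and Zfp36l2 had none above 0.816 (Sh3rf1). Among the members the closest pairs were Cnot6l with Pabpn1l (0.898) and Cnot7 with Btg4 (0.856), and the most opposed were Cnot8 and Pabpn1l (-0.905).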

How the data were processed

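Transcripts of 32 libraries of mouse embryos were measured as total RNA with a stranded SMARTer kit or as polyA RNA with SMARTer Ultra Low Input cDNA and Nextera XT, per the labels' protocols. The deposited values are FPKM. The authors' tools were HISAT2 2.1.0 and StringTie 1.3.3b with mm10, per the submitters' processing notes; which annotation, filter or strand option they chose is not given in the sources.

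From the FPKM, log2(FPKM + 1) was computed (pseudocount 1), and a gene was kept where 2 or more libraries of its table reached 1 FPKM, which left 15068 genes for total RNA and 18506 for polyA. Each table's 16 libraries entered one limma fit (version 3.58.1 under R 4.3.3, with statmod 1.5.0, trend and robust options) that gives every group its own mean, and the code was checked on simulated data. P-values were 2-sided, adjusted by Benjamini-Hochberg over all genes tested, with a threshold of 0.05. Stage, genotype and their differences gave 19 comparisons, 1 of them (the arm difference of m-z- against m-z+) added after the values were seen. An exact permutation test had been planned for the 2 paralogue ratios; its p is not used, since the genes were known to move with stage. Alternatives were another pseudocount, no filter, TPM and median-ratio scaling, only the libraries compared, a replicate block, plain empirical Bayes and leaving out each library.

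The members and gene lists were chosen with earlier results of these data known. All 9 members are named. Of the pathway list the rule named, per stage comparison, the 3 largest rises and 3 largest falls that passed, and of similar genes the 5 closest for Btg4 and 3 for each other member; the genes called alike in all stage comparisons were named after their values were seen. Lists of oocyte, 2-cell embryo, cumulus and granulosa, blood and sperm genes were read, and the 6 sperm genes summed to at most 14.1 FPKM in total RNA and 18.3 FPKM in polyA RNA. Sequences are GENCODE M21 transcripts on mm10, in which 45229 of the 46078 gene identifiers were found. Python 3.11.15, pandas 2.3.3 and Biopython 1.88 were used.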

Additional observations from a re-analysis of the deposited data

How the results depend on the processing

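Of 2133 values of single members under alternatives, 2079 stayed on their side of the threshold, 35 lost and 19 gained a call, and 0 called values reversed; of the 2079, 117 that passed in neither setting differed in sign. The count of members called was 5 under TPM scaling in Dppa2 m+z+ embryos, against 8. Over all genes that setting called 3979 higher and 5950 lower, against 4783 and 4498. Leaving 1 library out of a group of 2 leaves 1 there. Each such fit between stages called fewer genes over all genes, so a lower count of members is not particular to them. Leaving out 1 library gave 6 to 8 members called in Dppa2 m+z+, 1 to 3 in Dppa4 m+z+, 5 to 6 in Dppa2 m-z+ and 1 to 3 in Dppa4 m-z+ embryos between stages, and 1 to 2 in WT polyA RNA, against 4. It gave 0 to 1 for Dppa2 m-z+ against m+z+ at the 2-cell stage and 0 to 2 for the stage change of the Dppa2 against the Dppa4 controls. The Dppa4 m+z+ count was 1 without 1-cell replicate 1, and the Dppa4 m-z+ count 1 without 2-cell replicate 2. The WT polyA count was 2 without 1-cell replicate 1, 1-cell replicate 2 or 2-cell replicate 2 and 1 without 2-cell replicate 1; each such fit has 1 library in an arm, assumed to vary like the other groups. Over all genes the WT polyA count of 4784 was 2743 and 2772 without 1-cell replicate 1 or 2, 3184 without 2-cell replicate 1, and 7263 in a fit of only the 4 libraries. Deviations from group means were hardly correlated between same-numbered libraries (r from -0.06 to 0.14 for total RNA, -0.18 to 0.09 for polyA), so numbers were not treated as pairs. With a replicate block 6 members, against 5, were called in Dppa2 m-z+ embryos, Btg4 being added (-0.50, limma adjusted p = 0.0282), and other counts of members were the same. Groups of 2 and 3 libraries and unknown depth limit precision, most of all in polyA RNA.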
